A study of Mus musculus with 6 samples.

Results

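Cells take up glucose through transporters of the GLUT family, break it down to pyruvate in the cytosol, and then either convert the pyruvate to lactate and export it, or move it into mitochondria for oxidation. The genes described here act at the entrance and at the exits of this route. *Slc2a1* and *Slc2a3* encode the glucose transporters GLUT1 and GLUT3, and *Slc16a1* and *Slc16a3* encode the proton-linked lactate transporters MCT1 and MCT4. *Pfkfb2* and *Pfkfb3* encode enzymes that set the level of the fructose bisphosphate that switches on phosphofructokinase. *Pdk1* and *Pdk3* encode kinases that inactivate pyruvate dehydrogenase by phosphorylating its alpha subunit, which is encoded by *Pdha1*, and *Mpc1* encodes a subunit of the carrier that brings pyruvate into mitochondria. These 10 genes were taken by symbol, under a rule that uses no measured value although earlier results of these data were known, from the 23420 rows of the deposited table, and all 10 were listed and passed the filter on low values.

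Levels of messenger RNA were compared between 3 pools of control lungs (Raptorf/+; ShhCre/+) and 3 pools of mutant lungs (Raptorf/f; ShhCre/+), all collected from mouse embryos at E11.5dpc. Each pool combined 3 or 4 lungs of the same genotype. All 6 pools carried Cre at the *Shh* locus, so that control lungs also lost *Rptor* from their single floxed allele in cells with Cre. *Shh* is expressed in the epithelium of the lung, whereas mesenchymal, endothelial and blood cells in the same pools kept the floxed alleles. *Rptor* encodes the scaffold protein of mTOR complex 1 (mTORC1), a kinase complex that promotes anabolic metabolism. The comparison asked how gene expression differs in lungs without epithelial mTORC1. Values are normalized counts, that is, reads per gene scaled by the authors with 1 size factor for each library. They summed to between 20705058 and 20865998 per library.

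*Rptor* itself was at 2126, 2193 and 2279 normalized counts in control pools 1, 2 and 3 and at 2023, 2137 and 2148 in mutant pools 1, 2 and 3. The groups overlapped (log2 fold change -0.06, standard error 0.05, limma adjusted p = 0.584), and these counts cover the whole gene in all cells of the lung. Of 20 epithelial marker genes, 19 had mutant means below those of control lungs, and 7 of these passed the adjusted threshold. Their summed level was 16935 to 20540 normalized counts in control pools and 13014 to 14278 in mutant pools. All 12 mesenchymal markers had higher means in mutant lungs, 4 past the threshold, and their sum was 110426 to 117077 in control and 133484 to 140676 in mutant pools. The 4 were *Col1a1*, *Col1a2*, *Col3a1* and *Fgf10*, and these collagen genes were the most abundant of the list. For *Pdgfra*, *Pdgfrb*, *Tbx4*, *Foxf1* and *Twist1* the log2 fold change was 0.03 to 0.32, with an unadjusted limma p over 0.05. The summed markers of cardiac muscle were also lower in each mutant pool (741 to 858, against 1022 to 1158), and those of smooth muscle (9655 to 10658, against 7291 to 9070) and endothelium (15652 to 16248, against 13699 to 15361) were higher. Whole-lung values cannot tell fewer cells of a type from less RNA per cell, and the part of this difference in the results that follow was not tested. Control pool 3 stood apart on the first principal component (-45.5, against -13.0 to 24.4 in the other pools). *Xist*, which is transcribed from the inactive X chromosome of female cells, was at 4599, 309 and 12989 in control pools 1, 2 and 3. In mutant pools 1, 2 and 3 it was at 41.9, 466 and 161 (log2 fold change -4.16, limma adjusted p = 0.164).

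Among all 17168 genes tested with limma on log2(normalized count + 1), 86 genes or 0.501% had an adjusted p under 0.05. None of the 10 genes was among these 86 (limma, Benjamini-Hochberg adjustment over all genes tested). At an unadjusted p under 0.05, *Slc16a1*, *Slc2a3* and *Slc16a3* were lower in the mutant pools and 0 were higher, where 6.89% of all genes were lower and 6.67% were higher at this level. In edgeR and DESeq2, run on the whole reads of the 5 libraries other than control pool 3, 2 and 1 of the 10 genes had an unadjusted p under 0.05, against 18.7% and 8.87% of all genes. With the reads of all 6 libraries the counts were 3 in edgeR and 2 in DESeq2, against 14.9% and 8.21% of all genes. The mean was lower in the mutant pools for 7 of the 10 genes and higher for 3, with a median log2 fold change of -0.10, against -0.0021 over all genes tested. The 3 pools of each group did not overlap for *Slc2a3* and *Slc16a1*, both lower in the mutant pools. Of all genes tested, the groups did not overlap for 20.2%, with 10.4% lower and 9.76% higher in mutant pools. At an adjusted p under 0.1, *Slc16a1* was lower and 0 of the 10 were higher (limma), against 1.3% of all genes in either direction and 0.821% lower.

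**Figure D1:**
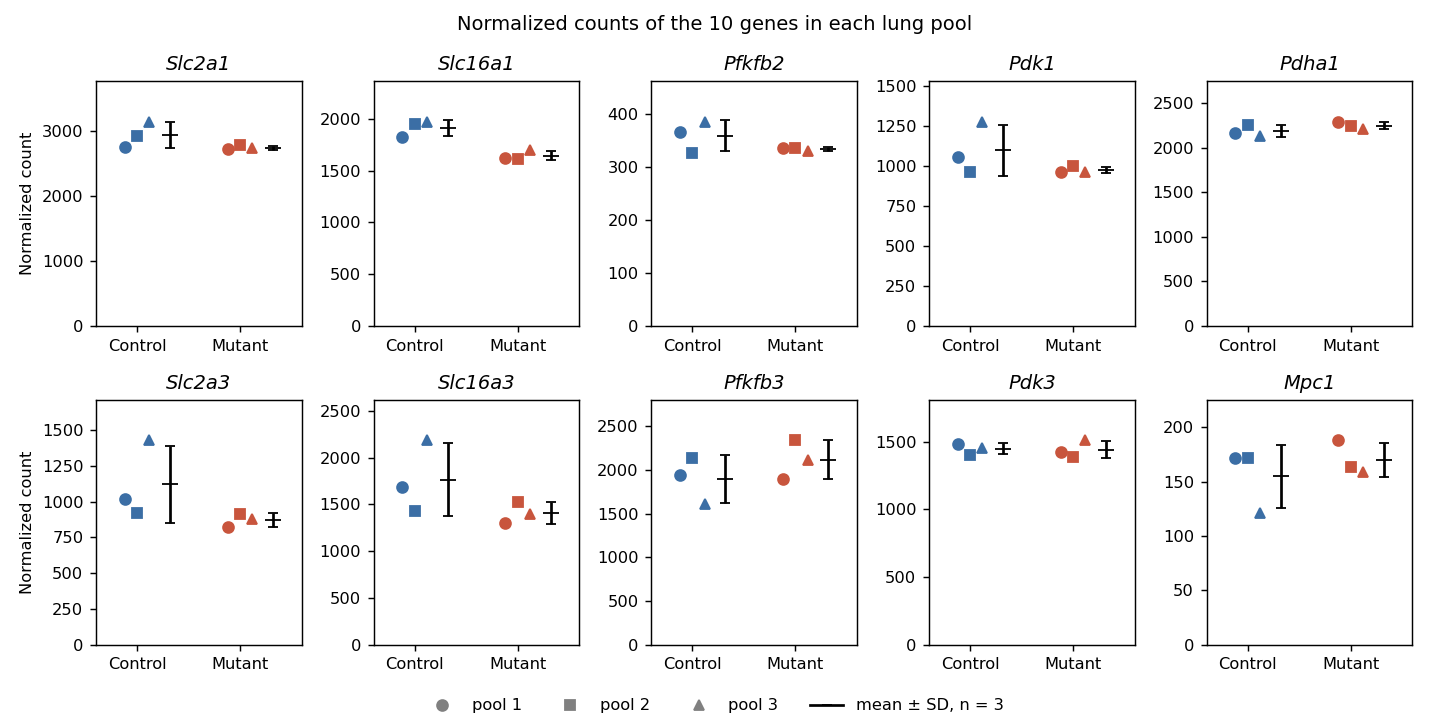
Normalized counts (y axis, from 0) of each of the 10 genes in the 3 control pools (blue) and 3 mutant pools (red) at E11.5dpc, with the symbol giving the pool number and the black bar the mean ± SD of 3 pools. The groups are apart for *Slc16a1* and, by a narrow margin, for *Slc2a3*, and the triangle of control pool 3 is the highest point for 6 genes.

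*Slc16a1* encodes MCT1, which carries lactate and pyruvate in either direction along their gradient. It lies on chromosome 3 of GRCm38 (104638668 to 104658462). The normalized counts of *Slc16a1* were 1825, 1948 and 1972 across the control pools, against 1623, 1616 and 1702 across the mutant ones. Every mutant pool was thus below every control pool, and the pools of both groups lay close together, with a coefficient of variation of 4.12% in control and 2.91% in mutant lungs against 2.37% from counting alone. The mean was 1915 ± 79.0 (SD, n = 3 pools) in control and 1647 ± 47.9 (SD, n = 3) in mutant lungs, which thus had 0.86 times the control level. The log2 fold change was -0.22 (standard error 0.05, 95% interval -0.32 to -0.11), with an unadjusted limma p of 0.00113 and an adjusted p of 0.0934, which misses the threshold. For a single gene in 3 pools against 3, no two-sided exact permutation test can give a p below 0.1. Without control pool 3 the log2 fold change was -0.20 (limma adjusted p = 0.0486), and edgeR on the same 5 libraries gave -0.20 (edgeR adjusted p = 0.0402), so that the gene passed the threshold there. In those fits 2.75% and 3.68% of all genes passed. DESeq2 on these libraries gave an adjusted p of 0.0709, where 3.09% of genes passed. With all 6 libraries the adjusted p was 0.0865 in edgeR and 0.0449 in DESeq2, where 0.539% and 1.94% of genes passed. Over all alternatives the adjusted p for *Slc16a1* ranged from 0.0402 to 0.314.

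*Slc16a3* encodes MCT4, the lactate exporter typical of strongly glycolytic cells (chromosome 11 of GRCm38, 120948480 to 120960868). Its normalized count was 1686, 1426 and 2184 across the control pools, against 1299, 1528 and 1395 across the mutant ones. Control pool 2 lay within the range of the mutant pools, whereas control pool 3 was far above all others. The mean was 1765 ± 385 (SD, n = 3 pools) in control and 1407 ± 115 (SD, n = 3) in mutant lungs. This difference, -0.31 on the log2 scale, missed the threshold (standard error 0.13, 95% interval -0.59 to -0.02, limma adjusted p = 0.326). Without control pool 3 the log2 fold change was -0.14, with a 95% interval of -0.31 to 0.02. The coefficient of variation in control lungs was 21.8%, against 2.51% from counting alone.

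The 2 lactate transporters could also be compared within each pool, where the size factor cancels. The log2 ratio of *Slc16a3* to *Slc16a1* was -0.11, -0.45 and 0.15 across the control pools, against -0.32, -0.08 and -0.29 across the mutant ones. The control pools spanned the whole range of the mutant pools, and the difference of -0.09 (standard error 0.19) was well within the spread (exact permutation test, p = 0.7, adjusted over 5 ratios 0.7).

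*Slc2a3* encodes GLUT3, a glucose transporter of high affinity (chromosome 6 of GRCm38, 122727809 to 122801640). Its normalized count was 1022, 917 and 1429 across the control pools, against 819, 912 and 881 across the mutant ones. The groups did not overlap, but control pool 2 and mutant pool 2 were next to each other, and control pool 3 was again the highest. The mean was 1123 ± 271 (SD, n = 3 pools) in control and 871 ± 47.1 (SD, n = 3) in mutant lungs, or 0.789 times the control level on the log2(value + 1) scale. The log2 fold change of -0.34 had a standard error of 0.13 and a 95% interval of -0.64 to -0.05 (limma adjusted p = 0.296). It was -0.15 without control pool 3 (95% interval -0.30 to -0.01, limma adjusted p = 0.251).

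*Slc2a1* encodes GLUT1, which serves basal glucose uptake in many tissues (chromosome 4 of GRCm38, 119108711 to 119137983). It had 2749, 2920 and 3136 normalized counts in the control pools, against 2715, 2776 and 2732 in the mutant ones. The highest mutant pool exceeded the lowest control pool, and the mutant pools lay close together, with a coefficient of variation of 1.15%. The log2 fold change was -0.10, with a 95% interval of -0.21 to 0.02 (limma adjusted p = 0.438), so that the interval reaches neither a fall as large as the estimate for *Slc2a3* nor a rise over 0.02. The log2 ratio of *Slc2a3* to *Slc2a1* was -1.43, -1.67 and -1.13 across the control pools, against -1.73, -1.60 and -1.63 across the mutant ones. These ranges overlapped (difference -0.24, standard error 0.16, exact permutation test, p = 0.3, adjusted 0.375).

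Per kilobase of exon (the union of exons in GENCODE M21), *Slc2a1* had the highest level of the 10 genes, at 837 ± 55.3 normalized counts per kilobase in control lungs (SD, n = 3 pools). *Pdha1* followed at 584 ± 17.5 and *Pdk3* at 566 ± 15.7, which did not differ beyond their spread. *Slc16a1* was at 433 ± 17.8, *Slc16a3* at 332 ± 72.4 and *Pfkfb3* at 251 ± 35.9, and the last 2 overlapped within 1 SD. *Slc2a3* at 155 ± 37.3 and *Pdk1* at 141 ± 20.5 could not be put in order. *Mpc1* at 74.4 ± 14.0 and *Pfkfb2* at 49.6 ± 4.08 were lowest. *Slc2a1* thus stood above *Slc2a3* in level per length, and *Pdk3* above *Pdk1*, in every pool. These levels depend on which transcripts a cell uses, since exons of all annotated transcripts count toward the length.

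For 9 of the 10 genes, all but *Slc2a3*, the sequence before each RefSeq start of transcription (GRCm38.p6) was used, in 14 windows of 250 bases. A gene can have several such starts. The windows of *Slc16a3*, *Pfkfb2* and *Mpc1* lie wholly inside the GENCODE M21 spans of these genes. Each window was searched on both strands for ACGTG and GCGTG, the core letters of the element bound by hypoxia-inducible factors, and for CACGTG, an E box bound by MYC and related factors, which contains ACGTG on both strands. All 9 genes held ACGTG or GCGTG in at least 1 window, against 41.5% of all 27025 genes with a window. CACGTG was found for *Slc16a1*, *Pfkfb2* and *Pfkfb3*, against 6.86% of all genes. Of the 14 windows, 12 had a GC content above the median of all windows (52.4%). The 27025 genes had 32851 windows in all, and the shares were not compared at equal GC content or number of windows. A match is a description of the letters and not a binding site. The windows of 3 transporters whose means were lower in mutant lungs, and of *Pfkfb3*, whose mean was higher, are given with the matches in capitals, from 5′ to 3′ on the strand of the gene.
Slc2a1, chr4:119108495-119108744, plus strand: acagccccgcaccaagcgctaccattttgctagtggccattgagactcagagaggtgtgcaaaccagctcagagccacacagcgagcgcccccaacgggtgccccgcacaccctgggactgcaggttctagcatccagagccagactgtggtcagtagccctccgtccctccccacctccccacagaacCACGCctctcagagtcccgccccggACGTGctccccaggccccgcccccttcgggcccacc
Slc16a1, chr3:104638414-104638663, plus strand: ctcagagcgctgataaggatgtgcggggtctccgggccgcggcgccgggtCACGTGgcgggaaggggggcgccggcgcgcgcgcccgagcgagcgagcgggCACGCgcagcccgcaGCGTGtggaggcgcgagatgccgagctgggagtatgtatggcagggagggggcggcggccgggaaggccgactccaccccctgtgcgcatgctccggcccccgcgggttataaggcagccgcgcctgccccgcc
Slc16a3, chr11:120948817-120949066, plus strand: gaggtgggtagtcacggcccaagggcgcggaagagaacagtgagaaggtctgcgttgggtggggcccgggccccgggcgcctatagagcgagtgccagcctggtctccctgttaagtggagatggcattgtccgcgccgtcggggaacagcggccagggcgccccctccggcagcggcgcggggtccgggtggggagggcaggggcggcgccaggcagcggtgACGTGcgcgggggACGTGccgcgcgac
Pfkfb3, chr2:11553930-11554179, minus strand: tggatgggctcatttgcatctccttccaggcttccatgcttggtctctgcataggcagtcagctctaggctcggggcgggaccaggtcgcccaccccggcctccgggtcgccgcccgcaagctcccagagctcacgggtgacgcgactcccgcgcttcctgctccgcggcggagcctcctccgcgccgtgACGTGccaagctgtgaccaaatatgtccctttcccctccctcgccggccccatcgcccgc
In *Slc16a3*, ACGTG starts 27 and 14 bases before the RefSeq start, which lies inside the GENCODE span of the gene. In *Slc2a1*, ACGTG starts 36 bases before the RefSeq start, with GCGTG on the other strand at 61. In *Slc16a1* the E box starts 200 bases upstream, and GCGTG is found on the minus and on the plus strand 149 and 134 bases upstream. *Pfkfb3* has ACGTG starting 60 bases upstream in this window, and its second window, at another start, holds CACGTG.

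*Pfkfb3* encodes the family member with the highest ratio of kinase to phosphatase activity, which favours glycolysis (chromosome 2 of GRCm38, 11471433 to 11554077). Its normalized count was 1945, 2143 and 1605 across the control pools, against 1894, 2339 and 2114 across the mutant ones. The groups overlapped broadly, and control pool 3 was the lowest of the 6, the opposite of its place for *Slc2a3* and *Slc16a3*. The log2 fold change was 0.16 (standard error 0.10, 95% interval -0.07 to 0.39, limma adjusted p = 0.527), and it was 0.05 without control pool 3. *Pfkfb2*, which encodes a form best known from heart (chromosome 1 of GRCm38, 130689182 to 130729253), had 366, 327 and 386 normalized counts in the control pools, against 336, 336 and 330 in the mutant ones. The mutant pools lay inside the range of the control pools (log2 fold change -0.10, 95% interval -0.29 to 0.08, limma adjusted p = 0.633). *Pfkfb2* shares 1262 bases of exon with the annotated gene Gm29427 on the same strand, so its count may miss reads there. The log2 ratio of *Pfkfb3* to *Pfkfb2* was 2.41, 2.71 and 2.05 across the control pools, against 2.49, 2.79 and 2.68 across the mutant ones (difference 0.27, standard error 0.21, exact permutation test, p = 0.3, adjusted 0.375).

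*Pdk1* encodes a pyruvate dehydrogenase kinase that is well known to respond to hypoxia (chromosome 2 of GRCm38, 71873224 to 71903858). Its normalized count was 1053, 963 and 1273 across the control pools, against 961, 995 and 961 across the mutant ones. Control pool 2 lay among the mutant pools, and control pool 3 was the highest. The log2 fold change was -0.16 with all pools (standard error 0.09, 95% interval -0.36 to 0.03, limma adjusted p = 0.452) and -0.05 without control pool 3. *Pdk3*, on the X chromosome from 93764607 to 93832201, had 1484, 1405 and 1457 normalized counts in the control pools, against 1425, 1388 and 1511 in the mutant ones. Its values interleaved, and the 95% interval of the log2 fold change, -0.12 to 0.10, is among the narrowest of the 10. The log2 ratio of *Pdk3* to *Pdk1* was 0.49, 0.54 and 0.19 across the control pools, against 0.57, 0.48 and 0.65 across the mutant ones, which overlapped (difference 0.16, standard error 0.12, exact permutation test, p = 0.3, adjusted 0.375).

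*Pdha1*, the substrate of these kinases, lies on the X chromosome from 160122209 to 160138413. It had 2162, 2255 and 2129 normalized counts in the control pools, against 2288, 2243 and 2207 in the mutant ones. The mean was 2182 ± 65.5 (SD, n = 3 pools) in control and 2246 ± 40.2 (SD, n = 3) in mutant lungs, and the 95% interval of the log2 fold change was -0.05 to 0.14 (limma adjusted p = 0.719). The coefficients of variation were 3.0% and 1.79%, close to the 2.13% from counting alone. The log2 ratio of the summed kinases *Pdk1* and *Pdk3* to *Pdha1* was 0.23, 0.07 and 0.36 across the control pools, against 0.06, 0.09 and 0.16 across the mutant ones. Mutant pool 1 was just below the lowest control pool, and the other mutant pools lay within the control range (difference -0.12, standard error 0.09, exact permutation test, p = 0.3, adjusted 0.375).

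*Mpc1*, on chromosome 17 of GRCm38 from 8282904 to 8297661, was counted least. Its normalized count was 172, 171 and 121 across the control pools, against 188, 164 and 159 across the mutant ones. Control pool 3 was the lowest, and the other 5 pools lay between 159 and 188. The estimate of 0.15 on the log2 scale (standard error 0.15, limma adjusted p = 0.715) turned to -0.016 without control pool 3. The 95% interval, -0.19 to 0.49, gives no direction. The coefficient of variation between control pools was 18.8%, against 7.84% from counting alone at this depth. A processed pseudogene, Mpc1-ps, is annotated elsewhere and could share reads with *Mpc1*. Exons of *Slc2a1*, *Pfkfb2*, *Pdha1* and *Mpc1* overlap genes on the opposite strand by 105, 154, 603 and 480 bases. The strand setting of the counting is not given. If strands were not separated, reads of these stretches cannot be told apart.

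**Figure D2:**
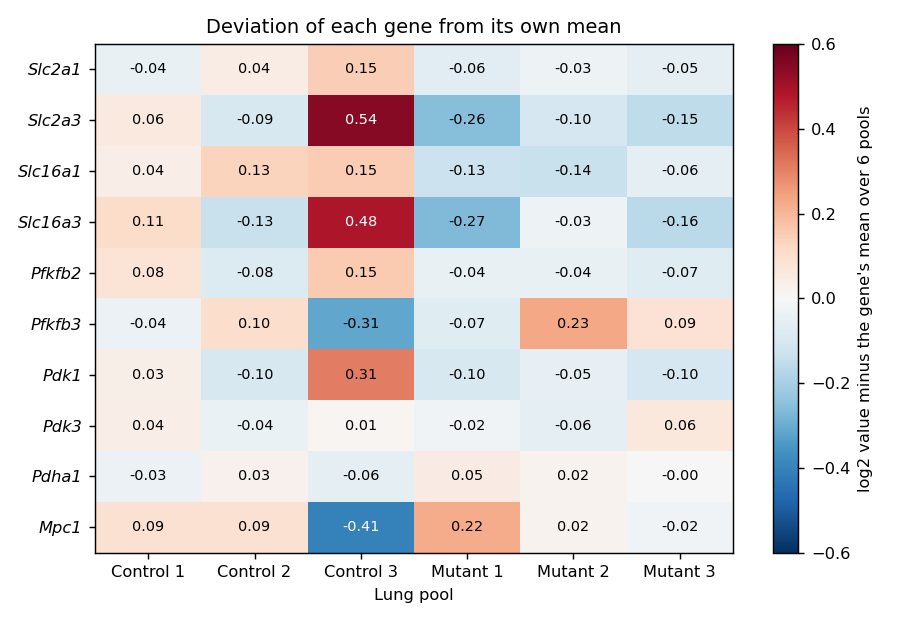
Deviation of each gene (rows) in each pool (columns) from its own mean over the 6 pools, on the log2(normalized count + 1) scale, with red above and blue below the mean. Control pool 3 holds the largest deviations, from 0.54 for *Slc2a3* to -0.41 for *Mpc1*, whereas *Slc16a1* is above its mean in all 3 control pools and below it in all 3 mutant pools.

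The genes differed most in how far control pool 3 departed from the rest. It held the highest of the 6 values for *Slc2a1*, *Slc2a3*, *Slc16a1*, *Slc16a3*, *Pfkfb2* and *Pdk1* and the lowest for *Pfkfb3*, *Pdha1* and *Mpc1*, so that 9 of the 10 genes were at an extreme there. Over 11456 tested genes with a mean of at least 100, control pool 3 was highest for 25.3% and lowest for 28.5%. The deviation in this pool was 0.54 on the log2 scale for *Slc2a3*, 0.48 for *Slc16a3* and 0.31 for *Pdk1*, and -0.31 for *Pfkfb3* and -0.41 for *Mpc1*. *Pdk3* and *Pdha1* deviated by 0.01 and -0.06. The control pools varied more than the mutant pools on the log2 scale for 9 of the 10 genes, against 65.8% of the 11456 genes. In the same pool the summed level of the erythroid marker list, for which 13 of 14 genes were listed, was 131382 normalized counts, against 101299 and 113267 in the other control pools and 100752 to 125361 in mutant pools. *Hba-a1* and *Hba-a2* of this list were at 0 in all 6 libraries. Without *Hbb-bh1*, a globin of primitive red cells that was at 15059 in control pool 3 and at 4545 to 9007 in the other 5 pools, the sum was higher in mutant pool 1 (118006) than in control pool 3 (116324). *Hbb-y*, the most abundant gene of the list, was at 56813 in control pool 3 and at 49708 to 62073 in the mutant pools. Macrophage markers were lowest in control pool 3, at 2415 against 3083 to 3525 in the other 5. The part of these markers in the values of the 10 genes was not tested.

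**Figure D3:**
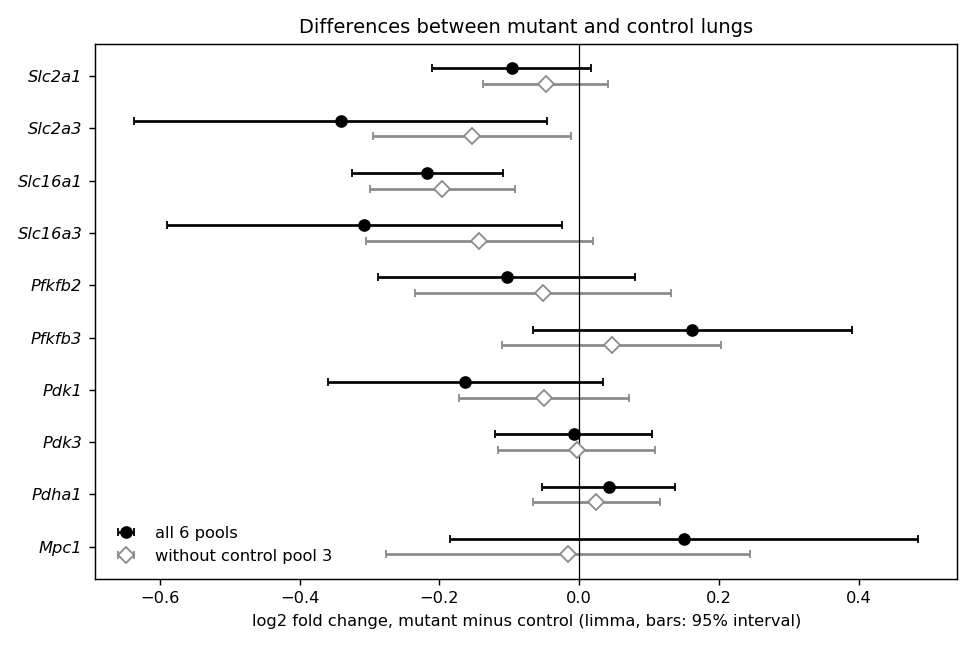
Log2 fold change of mutant against control lungs (x axis, limma, with 95% intervals) for each gene, with all 6 pools (black circles) and without control pool 3 (open diamonds). The estimate for *Slc16a1* stays at -0.22 and -0.20, while those of *Slc2a3*, *Slc16a3*, *Pdk1* and *Pfkfb3* move toward 0 when the pool is left out. Both intervals lie below 0 for *Slc16a1* and for *Slc2a3*.

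Leaving out control pool 3 moved the estimates for 9 of the 10 genes by over 1.5 times toward 0 or past it, though *Pdk3* and *Pdha1* were close to 0 with all pools, and that for *Slc16a1* from -0.22 to -0.20. *Slc16a1* and *Slc2a3* still had an unadjusted limma p under 0.05 without this pool, as did 16.9% of all genes. Without control pool 2 instead, 5 of the genes had such a p, with *Slc2a3* at -0.47, *Slc16a3* at -0.45, *Pdk1* at -0.25 and *Pfkfb3* at 0.25, where 16.1% of all genes had such a p. In that limma fit 0 of the 10 genes and 0.87% of all genes passed the adjusted threshold. *Slc16a1* was the gene with an unadjusted p under 0.05 whichever of the 6 pools was left out, with log2 fold changes from -0.25 to -0.20. With the log2 *Xist* value as a covariate the log2 fold change was -0.22 for *Slc16a1* (limma adjusted p = 0.289), whereas it was 0.020 for *Slc2a3*, 0.082 for *Slc16a3* and 0.052 for *Pdk1*. *Xist* was itself mostly higher in the control pools, so this covariate shares its variation with genotype. The fit therefore cannot tell the sex of the embryos from genotype.

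**Figure D4:**
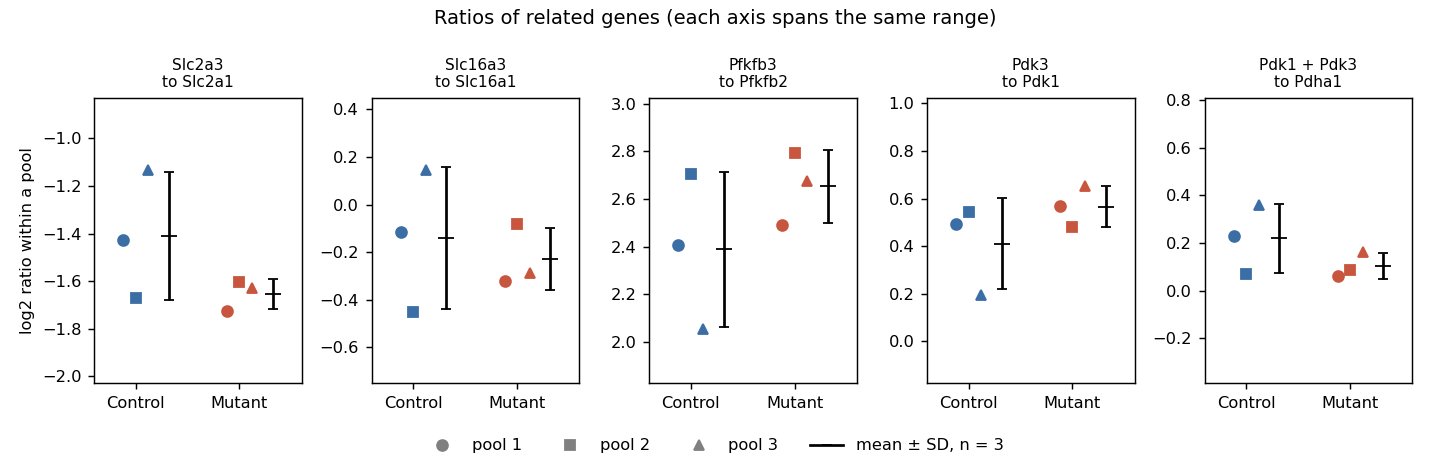
Log2 ratio of 2 genes (or of the summed kinases to *Pdha1*) within each pool (y axes of equal span), for control (blue) and mutant (red) pools, with symbols for the pool number and black bars for the mean ± SD of 3 pools. In each of the 5 panels the groups overlap, and control pool 3 lies at the edge of the control range.

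The other genes of the same steps were taken from a list of 39 genes, of which 35 were tested. Of these, 0 passed the adjusted threshold in limma, and 3 were higher and 4 lower at an unadjusted p under 0.05, or 7 in all, where 13.6% of all genes passed. Counts in edgeR and DESeq2, on 5 libraries, were 2 genes past the adjusted threshold in each, *Ldha* and *Txnip*, where 3.68% and 3.09% of all genes passed. With all 6 libraries, 0 of the list passed in edgeR and 1, *Ldha*, passed in DESeq2, where 0.539% and 1.94% of all genes passed. In edgeR 6 of the list had an unadjusted p under 0.05, against 14.9% of all genes. The median log2 fold change of the 35 genes was -0.05.

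Among the enzymes that act on pyruvate, *Ldha*, the lactate dehydrogenase subunit that favours lactate formation, had 16568, 14951 and 18580 normalized counts in the control pools, against 13602, 14020 and 13837 in the mutant ones. The groups did not overlap (log2 fold change -0.27, limma adjusted p = 0.124, and -0.19 with adjusted p = 0.0306 without control pool 3). Without control pool 2 it was -0.34 (limma adjusted p = 0.0253), and with the *Xist* covariate it was -0.09 (limma adjusted p = 0.656). *Mpc2*, which encodes the partner of MPC1 in the pyruvate carrier, was at 381 to 463 in control and at 469 to 483 in mutant pools, a difference of 0.18 on the log2 scale (limma adjusted p = 0.367) that was 0.11 without control pool 3.

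Of the remaining kinases and phosphatases of pyruvate dehydrogenase, *Pdk2*, a kinase of wide distribution, had 643, 611 and 602 normalized counts in the control pools, against 761, 712 and 759 in the mutant ones. The groups did not overlap, and the log2 fold change of 0.27 had a standard error of 0.06 (limma adjusted p = 0.0975), near that of *Slc16a1* in its p but of opposite sign. *Pdp2*, a phosphatase that reactivates the enzyme, was at 361, 383 and 396 in control and at 323, 351 and 321 in mutant pools (log2 fold change -0.20, limma adjusted p = 0.303). The 4 other tested subunits of the complex had log2 fold changes between -0.06 and 0.10. *Dld*, its dihydrolipoamide dehydrogenase, had the highest count of these and was at 2318 ± 49.4 in control and 2349 ± 38.3 in mutant lungs (SD, n = 3 pools).

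Among chaperones of the lactate transporters, *Emb*, which encodes embigin, had 456, 409 and 589 normalized counts in the control pools, against 388, 356 and 385 in the mutant ones (log2 fold change -0.35, limma adjusted p = 0.234, with -0.20 without control pool 3 and -0.13 with the *Xist* covariate). *Bsg*, which encodes basigin, the partner of MCT1 and MCT4, was at 6832 ± 172 in control and 7069 ± 319 in mutant lungs (SD, n = 3 pools), and its groups overlapped. Among 10 other tested glucose and hexose transporters, *Slc2a4*, which encodes the insulin-responsive GLUT4, was at 611, 582 and 556 in control and at 641, 642 and 738 in mutant pools (log2 fold change 0.21, limma adjusted p = 0.248). *Tigar*, listed under its older symbol 9630033F20Rik and known for lowering fructose bisphosphate, was at 209, 240 and 226 in control and at 199, 188 and 184 in mutant pools (log2 fold change -0.24, limma adjusted p = 0.320). *Txnip*, an arrestin that lowers glucose uptake, was at 1610, 1539 and 1897 in control pools and at 1829, 1794 and 1829 in mutant pools. Control pool 3 was the highest of the 6 for this gene, and the log2 fold change was 0.12 with all pools (limma adjusted p = 0.502) and 0.21 without it (limma adjusted p = 0.0273).

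**Figure D5:**
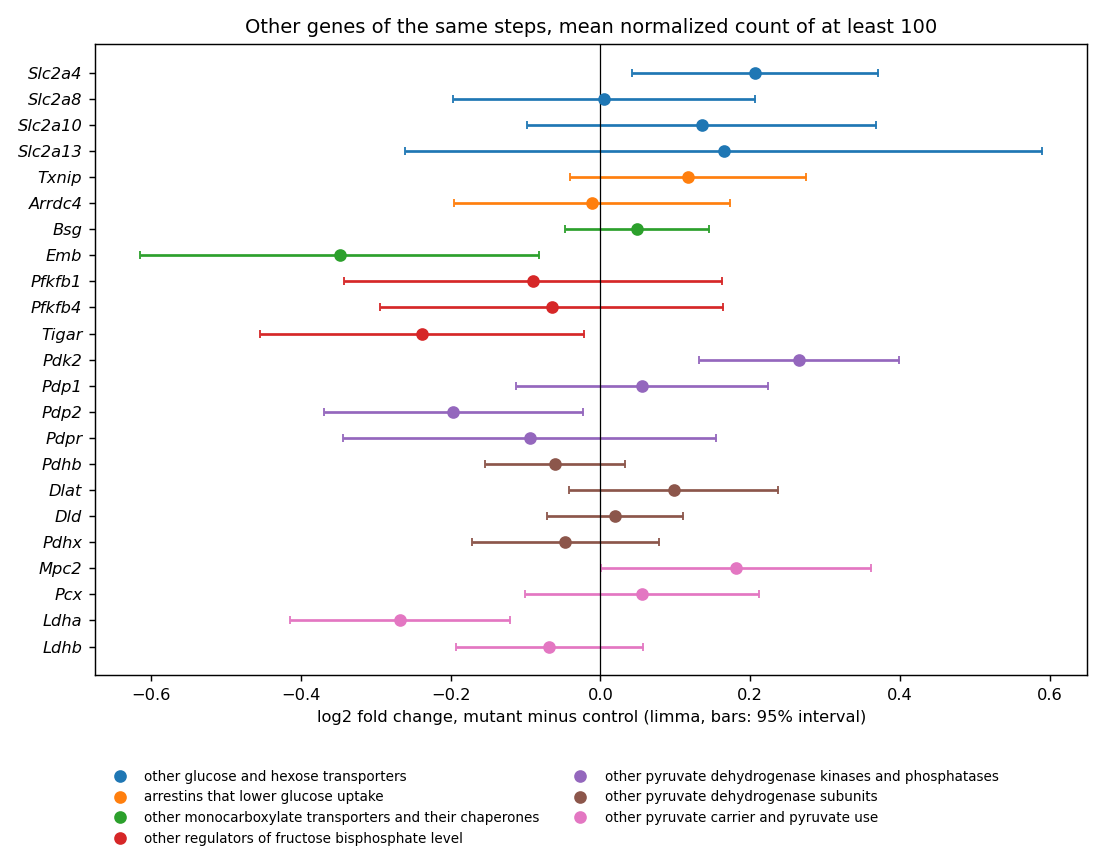
Log2 fold change of mutant against control lungs (x axis, limma, with 95% intervals) for the 23 listed genes of the same steps with a mean normalized count of at least 100, coloured by group. The intervals of *Slc2a4*, *Pdk2* and *Mpc2* lie above 0 and those of *Emb*, *Tigar*, *Pdp2* and *Ldha* below it, before any adjustment over genes.

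*Slc16a1* had the lowest unadjusted p of the 10 genes, so the genes with the most similar pattern were sought for it. Likeness was measured as the root mean square difference of log2 values, each gene centred on its own mean, over the 6 libraries and among the 11456 genes. The 5 nearest were *Ddx55* (0.0244), *Ssx2ip* (0.0267), 8030462N17Rik (0.0285), *Kremen1* (0.0289) and *Cep72* (0.0329). The median over all genes was 0.141, and the nearest genes lie below it by the way they were picked. They describe likeness and are not a test. *Ddx55*, for example, had 342, 373 and 384 normalized counts in the control pools, against 303, 315 and 330 in the mutant ones.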

How the data were processed

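RNA of whole lungs at E11.5dpc was compared between 3 control and 3 mutant pools, grouped by their labels. The submitters' processing notes name Trim Galore, HISAT2, featureCounts and DESeq2 and the build mm10, without roles or versions. The strand setting is not given in the sources used here. The authors deposited 1 table whose signal values are normalized counts (reads divided by a size factor per library). It also holds the authors' own mean, log2 fold changes, standard errors and test statistics (a score) and p-values, none of which was used. Whole reads could be recovered for every value of all 6 libraries within 0.1 of a read, which gave 20197642 to 21276090 reads. The step between values in control pool 3, 0.994, lies near 1, where the check of units used here accepts no step. The planned count tests left this library out for that reason, although all its values were whole. Count tests with all 6 libraries were added after seeing the data.

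The main test was limma 3.58.1 in R 4.3.3 with a mean-variance trend, run on log2(normalized count + 1). Genes had to reach a normalized count of 1 in 3 or more libraries. Adjustment was by Benjamini-Hochberg over 17168 genes, with a threshold of 0.05. The count tests were edgeR 4.0.16 and DESeq2 1.42.0. Each was tried on simulated data. Ratios within a pool were compared by two-sided exact permutation tests. The rule for the 10 genes uses no measured value, but the genes, the gene lists and the tests were chosen with earlier results of these data known. All 10 genes are named, and from each group of the other pathway genes the most abundant one and up to 2 with the lowest unadjusted p under 0.05. The study's methods state that mutants of several litters entered its statistics but not how litters were divided among the pools, so p-values measure the spread between these pools. Replicates differed beyond sampling noise (chi-square per degree of freedom 2.19 to 4.51). Intervals cover the spread between pools, and the share from counting covers counting error only. Coordinates are those of GENCODE M21 (GRCm38).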

Additional observations from a re-analysis of the deposited data

How the results depend on the processing

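With 3 pools a group the two-sided exact permutation test cannot go below p = 0.1, and the spread between control pools exceeded counting error for most genes. Upper-quartile or TMM scaling, other filters and pseudocounts of 0.1 or 10 left 0 of the 10 genes past the adjusted threshold and 3 past the unadjusted one. Of all genes, 2123 to 2434 were past the unadjusted threshold in these fits. The number of genes called, 86, became 8 without the trend, 545 in edgeR and 404 in DESeq2 on 5 libraries, 79 in edgeR and 277 in DESeq2 on all 6 libraries (an alternative chosen after seeing the data), and 1 (without control pool 1 or mutant pool 3) to 468 (without control pool 3) when 1 pool was left out. The count of the 10 genes past the adjusted threshold, 0, became 1 (*Slc16a1*) in edgeR on 5 and 1 (*Slc16a1*) in DESeq2 on 6 libraries, 1 at a threshold of 0.1, and 0 to 1 when 1 pool was left out. The count at an unadjusted p, 3, became 1 without the trend, 1 with the *Xist* covariate and 1 in DESeq2 on 5 libraries, and 1 to 5 when 1 pool was left out. Of all genes, 2328 had such a p in the main fit, 2003 without the trend and 1838 with the *Xist* covariate. The number was 1680 (8.87%) in DESeq2 on 5 libraries and 1566 to 2880 when 1 pool was left out. For the list of other genes, the 0 past the adjusted threshold became 2 in edgeR and 2 in DESeq2 on 5 libraries, 1 in DESeq2 on 6 libraries and 0 to 2 with 1 pool left out, and the 7 at an unadjusted p became 3 with the *Xist* covariate, 3 in DESeq2 on 5 and 4 on 6 libraries, and 3 to 8 with 1 pool left out. DESeq2 on 6 libraries had 1569 of all genes (8.21%) at an unadjusted p under 0.05. Fits on 5 libraries lack control pool 3. For the other changes of a call the cause was not tested.

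Some log2 fold changes turned sign. With the *Xist* covariate they were 0.020 for *Slc2a3*, 0.082 for *Slc16a3*, 0.026 for *Pfkfb2*, 0.052 for *Pdk1*, 0.018 for *Pdk3*, -0.015 for *Pdha1* and -0.14 for *Mpc1*. In that fit *Xist*, mostly higher in control pools, cannot be told apart from genotype. *Mpc1* was at -0.015 in edgeR and -0.013 in DESeq2 on 5 libraries, and ranged from -0.016 to 0.23 when 1 pool was left out, and *Pdk3* ranged from -0.042 to 0.019. The log2 difference of the ratio of *Slc16a3* to *Slc16a1* ranged from -0.25 to 0.05 when 1 pool was left out. Whether same-numbered pools hold embryos of the same litters is not stated. The correlations of deviations of same-numbered pools were -0.02, 0.10 and 0.03, which cannot settle it. With a replicate block 71 genes were called, 0 of the 10 genes among them, and not every pool correlated best with its own number. In that fit the unadjusted limma p was 0.0101 for *Slc2a3*, 0.0207 for *Slc16a3* and 0.00149 for *Slc16a1*. Of all genes, 2324 had an unadjusted p under 0.05 there.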
